A study of Mus musculus with 9 samples.

Results

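The Mediator complex was followed through RNA sequencing of brain tissue from adult male mice aged 3 to 4 months. Its genes were chosen by name, with no value in the rule: protein-coding genes called Med plus a number, with or without a final l, together with Cdk8, Cdk19 and Ccnc. This gave 33 genes of the 54446 listed, and all 33 were among the 17355 genes with enough counts to be tested. The family itself, and the division into kinase module and core, were selected on the TMM-scaled CPM of these same libraries, so the values below describe it and are not an independent test of it. The groups were wild type (B6N), Tfap2a+/- and Tfap2b+/-, each with 3 libraries, and every animal was male. By their labels, the heterozygotes carry 1 altered copy of the gene for AP-2 alpha or AP-2 beta, DNA-binding factors known from the neural crest and the developing nervous system. How either allele was made, whether a litter or animal was shared and which part of the brain was taken are not given in the sources used here. The p-values therefore measure the spread between these libraries, which may be technical.

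Mediator is a large complex that carries signals from transcription factors bound to DNA to RNA polymerase II at the promoter. Its head, middle and tail modules, held together by the scaffold subunit Med14, form the core that contacts the polymerase and the activators. A separate kinase module, made of Med12, Med13, cyclin C (Ccnc) and the kinase Cdk8, docks on the core through Med13 and keeps the polymerase from binding it while docked. In vertebrates Med12l, Med13l and Cdk19 are close copies of Med12, Med13 and Cdk8. Altered MED12 and MED13L genes are known causes of intellectual disability in people. By these roles the 33 genes divided into 4 kinase module genes, 3 kinase paralogs and 26 core genes, of which 12 belong to the head, 8 to the middle, 1 to the scaffold and 5 to the tail.

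Because the mutated genes encode DNA-binding factors, the start regions of the kinase module genes are shown with the AP-2 core sequence marked. RefSeq promoter windows of GRCm38.p6, which run from 250 bases before to 50 bases after a start, were found for 28 of the 33 genes. The motif GCCNNNGGC, a palindrome read on both strands, was in the window of 5 of these 28 genes, or 17.9%, against 18.5% of all 27025 genes with a window. The 5 genes were Med13, Med13l, Med20, Med29 and Med9. The 2 promoters below are those of Med12, which stood highest against wild type among the 33 genes in the libraries labelled Tfap2b+/-, and of Med13, its partner in the same module. Each is printed from its RefSeq window 5′ to 3′ up to the first annotated exon base, in lower case with the AP-2 matches in capitals.
Med12, chrX:101273841-101274029, plus strand: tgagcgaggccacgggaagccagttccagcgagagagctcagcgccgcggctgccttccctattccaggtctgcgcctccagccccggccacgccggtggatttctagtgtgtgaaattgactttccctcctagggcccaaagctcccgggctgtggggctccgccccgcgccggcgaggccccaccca
Med13, chr11:86357603-86357846, minus strand: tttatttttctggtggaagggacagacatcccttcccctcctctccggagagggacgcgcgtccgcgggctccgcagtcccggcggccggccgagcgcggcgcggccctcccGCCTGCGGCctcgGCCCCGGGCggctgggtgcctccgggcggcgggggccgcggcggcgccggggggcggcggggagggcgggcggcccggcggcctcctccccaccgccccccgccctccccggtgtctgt
Med12 had no match in its window, and Med12l, whose window began inside an annotated exon, had none either. In Med13 the 2 matches began 138 and 125 bases before the start. Med13l had 1 match, which began 205 bases before its start. Other promoter motifs searched on both strands were that of NRF1, in 14.3% of the 28 genes against 5.19% of all genes, CCGGAAGT of ETS factors, in 10.7% against 4.31%, and the E-box CACGTG, in 14.3% against 8.09%. The median G and C content of the windows was 57.8% for Mediator genes and 52.7% over all windows. These matches describe letters in a window and show no binding.

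The libraries held 21946800 to 29214975 counts in genes. Markers of neurons were abundant in every library, with a summed level of 4550 to 8200 CPM (counts per library total, with TMM scaling). Tfap2b did not follow its label, at 2.25, 0.715 and 14.8 CPM across wild-type libraries 1 to 3 against 32.9, 8.90 and 5.81 CPM across the libraries labelled Tfap2b+/-. Its mean was higher in the latter, but the groups overlapped (log2 fold 1.42 ± 0.98, SE, edgeR adjusted p = 0.598). That group is therefore called by its label throughout. Tfap2a lay near the limit of detection, at 0.264 to 0.734 CPM across wild type and 0.223 to 0.461 CPM across Tfap2a+/-. Library 1 labelled Tfap2b+/- stood apart by genes of serotonin neurons. Tph2, which makes serotonin, was at 40.9 CPM there and at 0.517 to 1.55 CPM in the other 8 libraries, and Slc6a4 and Fev were also highest there. Hoxb3 and Hoxa2, the other genes of the 5 on the hindbrain list, had no count in it, which allows up to 0.106 CPM. Wild-type library 2 and Tfap2a+/- library 1 stood apart by choroid plexus markers, with summed levels of 3096 and 860 CPM against 292.6 CPM or less in the other 7. Ttr alone was at 2761 and 767 CPM in them. Otx2, on the same list, went another way, at 20.4 CPM in library 1 labelled Tfap2b+/-, 17.8 CPM in wild-type library 2 and 6.68 CPM in Tfap2a+/- library 1. These are the 3 libraries left out together below. Library 3 labelled Tfap2b+/- stood apart as well, by 4 olfactory bulb markers that summed to 136.5 CPM against 29.9 CPM or less in the other 8, and it was left out singly. Further sums differed too, so leaving out the 3 libraries does not remove every such difference. Oligodendrocyte markers summed to 2060 CPM in Tfap2a+/- library 3 and 2458 CPM in library 3 labelled Tfap2b+/-. The other libraries had 4036 to 6756 CPM. Striatal markers summed to 2188 and 1972 CPM in Tfap2a+/- libraries 1 and 2, against 298 to 806 CPM elsewhere. Library 1 labelled Tfap2b+/- was lowest for neuron (4550 CPM) and microglial markers (163 CPM). Over all genes, edgeR's quasi-likelihood test called 0 genes at an adjusted p under 0.05 in each of the 3 comparisons. At an unadjusted p under 0.05 it had 666 genes for Tfap2a+/- against wild type, 1841 for the libraries labelled Tfap2b+/- against wild type and 1997 between the heterozygotes. At an adjusted p under 0.05, DESeq2 called 30, 175 and 228 genes in the same order.

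All 33 genes were expressed in brain. Levels were compared between genes per kilobase of exon that can be counted, as CPM per kb. Cdk19, the paralog of the kinase Cdk8, was the highest in wild type at 18.6 ± 1.71 CPM per kb (SD, n = 3; second to Med24 by the longest transcript), and Med18, a head subunit, was the lowest at 1.43 ± 0.122 CPM per kb, which is a 13.0-fold range. Med9 of the middle followed at 16.7 ± 1.06 CPM per kb, Med24 of the tail at 15.3 ± 1.37 CPM per kb and Med19 of the head at 14.7 ± 0.644 CPM per kb. Each of these 4 overlapped its neighbour in the order over the wild-type libraries. The scaffold Med14 came next at 11.9 ± 0.627 CPM per kb. At the other end, Med26 stood at 2.63 ± 0.237 CPM per kb, Cdk8 at 2.31 ± 0.128 CPM per kb and Med20 at 1.89 ± 0.329 CPM per kb. The wild-type values of Cdk8 and Med20 overlapped, while Med18 lay below both.

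**Figure D1:**
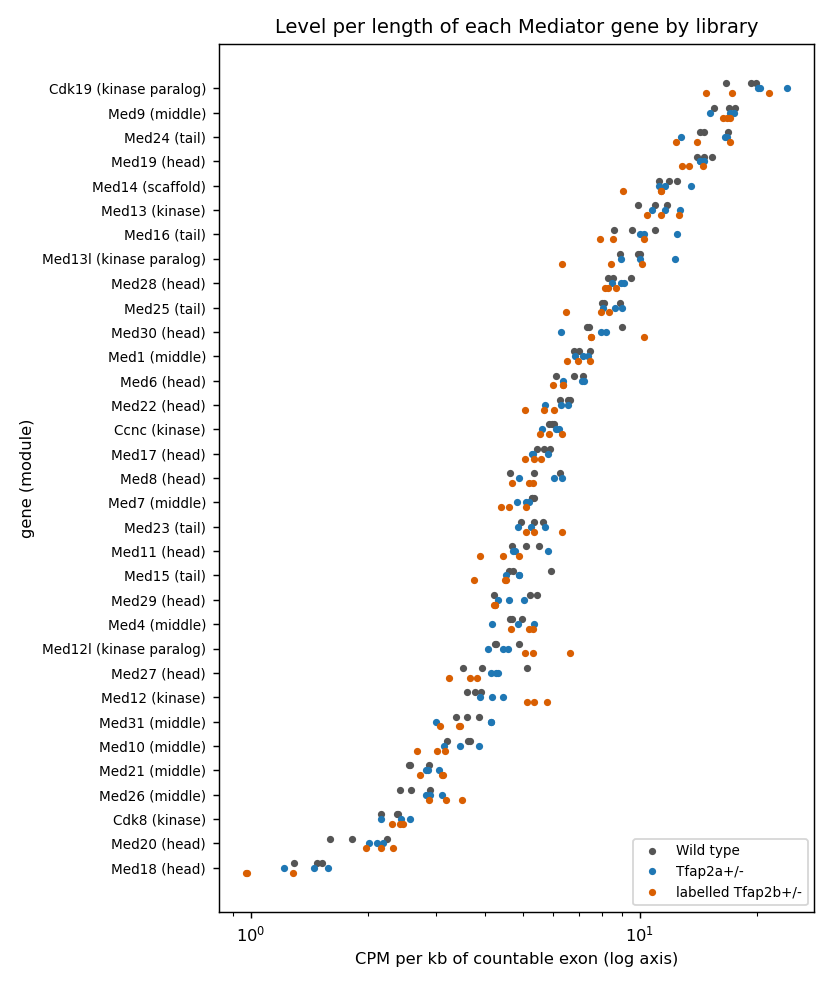
Level of each of the 33 Mediator genes in CPM per kb of countable exon (log axis), 1 point per library, ordered by the wild-type mean. Cdk19 is at the top with 18.6 and Med18 at the bottom with 1.43 CPM per kb in wild type, and most genes show the 3 groups on top of each other, while the Med12 points labelled Tfap2b+/- lie to the right of the others.

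The order depends on the length used. By the longest transcript in place of all exons, 6 of the 33 genes moved by more than 5 places, among them Med15, from rank 21 to rank 4, and Cdk8, from rank 31 to rank 24. Med24 then came first at 21.5 CPM per kb and Cdk19 next at 18.7 CPM per kb. The 5 tail genes ranked 3, 7, 10, 19 and 21 by all exons and 1, 3, 4, 9 and 19 by the longest transcript. Within the paralog pairs, Cdk19 made up 88.9 ± 1.29% of the summed per-kb level of Cdk8 and Cdk19 in wild type, 90.0 ± 0.656% in Tfap2a+/- and 88.0 ± 1.63% in the libraries labelled Tfap2b+/- (SD, n = 3). By the longest transcript the wild-type share of Cdk19 was 76.2 ± 2.35%, so Cdk19 was the higher of the pair by either length. Med12 and Med12l were close to each other, with Med12l at 54.2 ± 1.34%, 51.2 ± 0.484% and 51.0 ± 2.06% of their sum in the same order of groups. Med13l made up 47.0 ± 2.72%, 47.0 ± 3.11% and 41.7 ± 3.52% of the sum with Med13. By the longest transcript the wild-type share of Med13l became 58.8 ± 2.63%, so the order within that pair turned with the length.

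Replicates of 1 group were close for most of the 33 genes. The coefficient of variation of the CPM over 3 wild-type libraries had a median of 7.17%, from 0.698% for Med7 to 20.1% for Med27. The medians were 7.36% in Tfap2a+/- and 8.22% in the libraries labelled Tfap2b+/-, where Med13l varied the most at 23.1%.

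Med12 was the Mediator gene that stood furthest from wild type in the libraries labelled Tfap2b+/-. This X-linked gene (chromosome X, 101274030 to 101297465, plus strand) encodes the subunit that switches on the kinase through cyclin C. Its level was 26.3, 25.1 and 27.1 CPM across wild-type libraries 1 to 3, 31.0, 27.0 and 28.9 CPM across Tfap2a+/- and 40.2, 37.2 and 35.7 CPM across the libraries labelled Tfap2b+/-. The 3 libraries labelled Tfap2b+/- lay above the 6 others, while the wild-type and Tfap2a+/- ranges overlapped at their edge. Against wild type the log2 fold was 0.53 ± 0.083 (SE), a 1.44-fold difference with a 95% confidence interval of 0.34 to 0.72 on the log2 scale. Its unadjusted p of 0.000148 was the 12th smallest of 17355 genes, and edgeR's adjusted p was 0.195, so it was not called. Over 16 other edgeR settings the adjusted p ran from 0.155 to 0.707, and DESeq2 gave an adjusted p of 0.000112. The log2 fold was 0.48 without library 1 labelled Tfap2b+/-, 0.56 without library 3 and 0.46 without the 3 libraries that stood apart, and in each of the 17 alternatives it was the largest among the Mediator genes tested. On the per-kb scale Med12 ranked 26th of 33 in wild type, at 3.76 ± 0.150 CPM per kb, and 18th in the libraries labelled Tfap2b+/-, at 5.42 ± 0.329 CPM per kb (SD, n = 3).

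**Figure D2:**
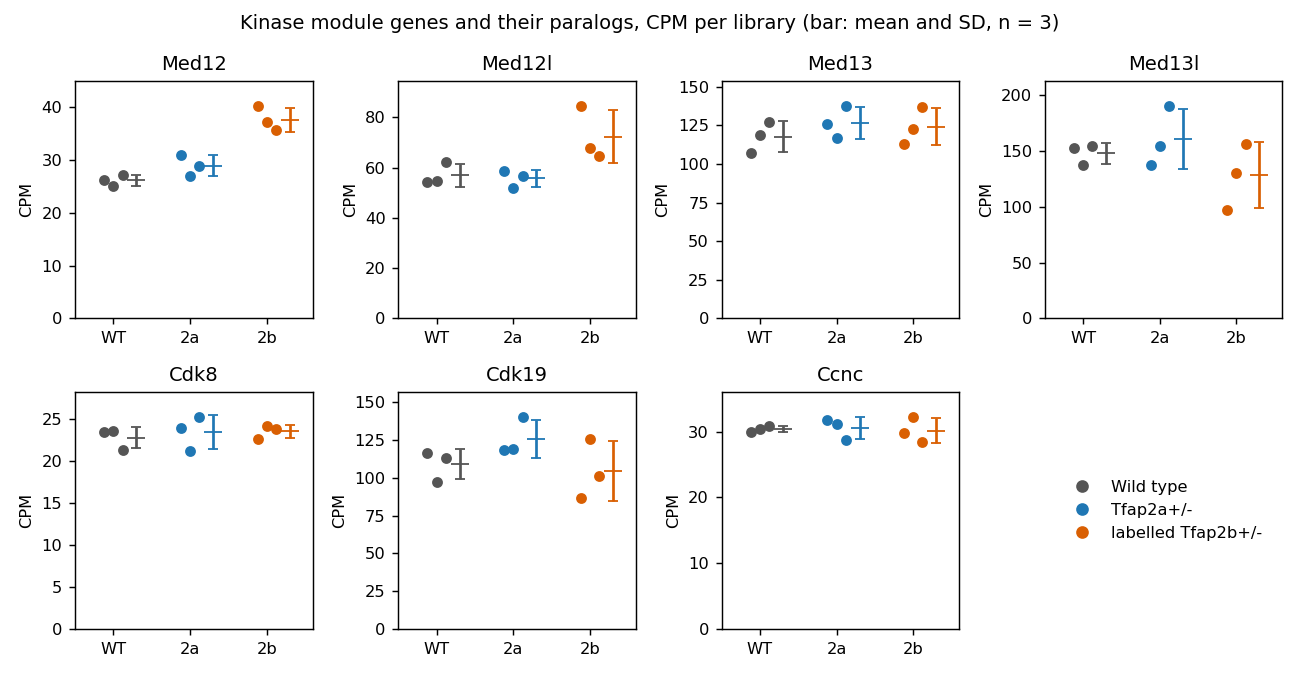
CPM of the 4 kinase module genes and their 3 paralogs, 1 point per library, with the mean and SD (n = 3) as a bar beside the points and each axis starting at 0. In the Med12 and Med12l panels the 3 points labelled Tfap2b+/- (35.7 to 40.2 and 64.6 to 84.3 CPM) lie above all others, and in the remaining 5 panels they overlap wild type.

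Other measures moved with Med12 across these libraries. Fragments that fell in no annotated exon under the reverse-strand count made up 11.1% to 11.8% of fragments in the libraries labelled Tfap2b+/-. The same share was 7.30% to 8.86% in wild type and 8.07% to 8.96% in Tfap2a+/-. It can include fragments from the opposite strand of an exon, so it does not measure reads outside exons alone. The summed level of 7 RNAs kept in the nucleus was 5593 to 7618 CPM across the libraries labelled Tfap2b+/-, 2842 to 4969 CPM across wild type and 4055 to 5191 CPM across Tfap2a+/-, with 5 of the 7 above wild type without overlap in the libraries labelled Tfap2b+/-, against 8.84% of all genes. The sum of 6 neuron markers was 4550 to 6768 CPM in the libraries labelled Tfap2b+/-, 6786 to 7913 CPM across wild type and 5861 to 8200 CPM across Tfap2a+/-, which overlapped both. Within that list Gad1 had a higher mean in the libraries labelled Tfap2b+/- than in wild type, and the wild-type values of Tubb3 spanned all of theirs. Their part in the result was not tested. In bulk tissue, fewer cells of a type and less RNA per cell cannot be told apart. Med12 also shares 749 of its 7704 exon bases with Gm21986 on the same strand, and reads there are given to neither gene. Gm21986 itself had 2 to 11 counts per library.

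Med12l, the paralog of Med12, was the only other Mediator gene whose libraries labelled Tfap2b+/- lay above every wild-type library. It was at 54.1, 54.5 and 62.3 CPM across wild type, 58.5, 51.9 and 56.8 CPM across Tfap2a+/- and 84.3, 67.9 and 64.6 CPM across the libraries labelled Tfap2b+/-. Library 1 of the last group was far above the other 2, whose lead over the highest wild-type library was small. The log2 fold against wild type was 0.34 ± 0.11 (SE), with a 95% confidence interval of 0.088 to 0.60 (edgeR adjusted p = 0.40, and from 0.238 to 0.83 over the alternatives). It was 0.22 without library 1 labelled Tfap2b+/-, 0.42 without library 3 and 0.20 without the 3 libraries that stood apart. Med12l spans 312858 bases of chromosome 3, and P2ry12, which encodes a microglial receptor, lies within it on the opposite strand. Forward-strand reads made up 2.41% of the stranded counts of Med12l. That share covers the exons of Med12l alone, so it does not show how well reads of P2ry12 were kept apart.

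The remaining kinase module genes and paralogs overlapped wild type in the libraries labelled Tfap2b+/-. Med13, which ties the module to the core, was at 107.0, 119 and 127 CPM across wild type, 126, 117 and 137 CPM across Tfap2a+/- and 113, 123 and 137 CPM across the libraries labelled Tfap2b+/-. The 3 groups overlapped, with a log2 fold of 0.079 ± 0.10 (SE) and a 95% confidence interval of -0.15 to 0.31 for the libraries labelled Tfap2b+/-. Med13l, its paralog, was at 153, 137 and 155 CPM across wild type, 138, 155 and 190.1 CPM across Tfap2a+/- and 97.6, 130.3 and 157 CPM across the libraries labelled Tfap2b+/-. Its log2 fold was -0.21 ± 0.18 (SE), and library 1, the lowest of the 9, set most of it, since without that library the log2 fold was -0.040.

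Cdk8, a kinase of RNA polymerase II and of transcription factors, was at 23.4, 23.5 and 21.3 CPM across wild type, 23.9, 21.2 and 25.2 CPM across Tfap2a+/- and 22.7, 24.2 and 23.8 CPM across the libraries labelled Tfap2b+/-. The groups overlapped, and the log2 fold against wild type was 0.050 ± 0.089 (SE), with a 95% confidence interval of -0.15 to 0.25. Its paralog Cdk19 was at 116, 97.4 and 113 CPM across wild type, 118, 119 and 140.1 CPM across Tfap2a+/- and 86.3, 126 and 101 CPM across the libraries labelled Tfap2b+/-. The last group held both the lowest value of the 9 libraries and the second highest, and its log2 fold was -0.061 ± 0.14 (SE). Cyclin C, the partner that activates the kinases, had the log2 folds nearest 0 of the 7 genes in both heterozygotes. Ccnc was at 29.9, 30.4 and 30.8 CPM across wild type, 31.8, 31.1 and 28.7 CPM across Tfap2a+/- and 29.9, 32.2 and 28.4 CPM across the libraries labelled Tfap2b+/-. Its log2 fold was -0.011 ± 0.078 (SE), with a 95% confidence interval of -0.19 to 0.17. Ccnc overlaps Tstd3 on the other strand, and 14.4% of its stranded counts were on the forward strand, the highest share among the 33 genes.

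The core genes as a group lay slightly below wild type in the libraries labelled Tfap2b+/-. The mean was lower for 19 of the 26 core genes, against 50.3% of all genes tested. Their median log2 fold was -0.11, against -0.0012 over all genes and -0.017 over the protein-coding genes tested. By module, 10 of 12 head genes, 4 of 8 middle genes, Med14 and 4 of 5 tail genes had a lower mean. The shift rested partly on library 1, in which 13 of the 26 core genes had their lowest value of the 9 libraries. Without that library the median was -0.064 with 17 of 26 lower, without library 3 it was -0.13 with 21 lower, and without the 3 libraries that stood apart it was -0.050 with 17 of 26 lower. None of the 26 was called by edgeR or by DESeq2.

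**Figure D3:**
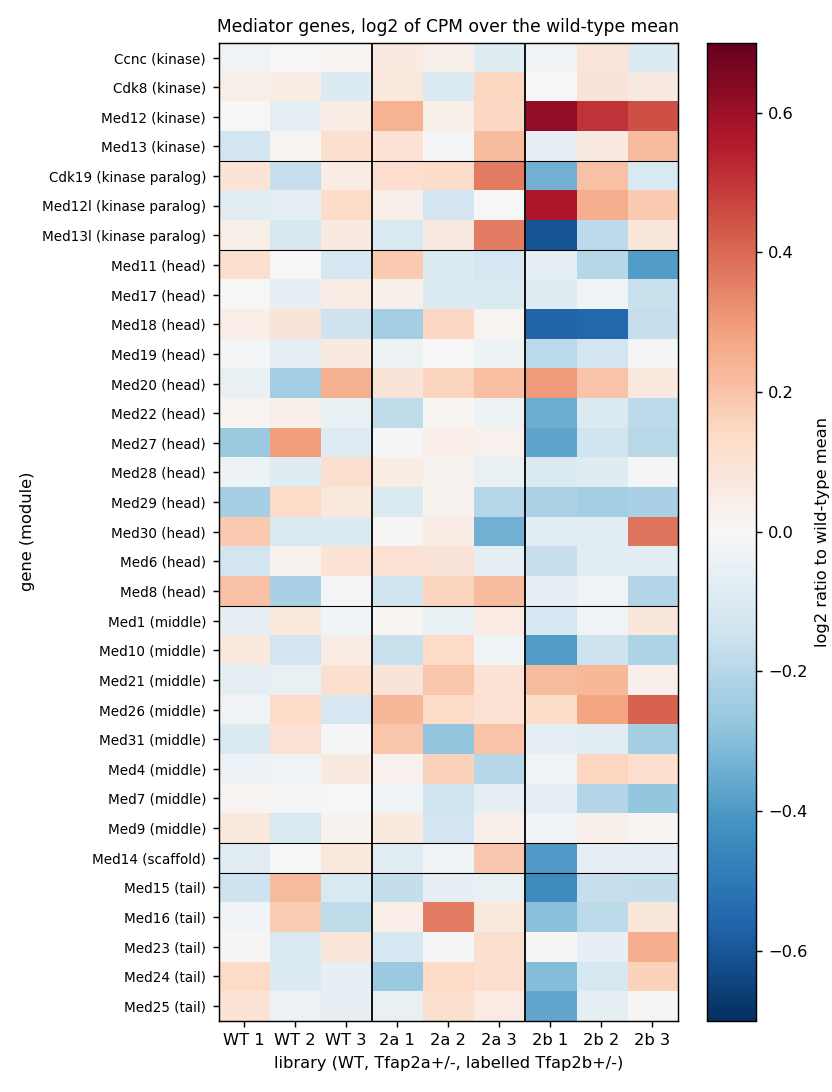
Log2 ratio of the CPM of each Mediator gene to its wild-type mean, with 1 column per library and 1 row per gene, ordered by module. Med12 and Med12l are red in the 3 columns labelled Tfap2b+/-, and the first of those columns is blue for most core genes.

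Across the whole family, 3 of 33 genes had an unadjusted p under 0.05 in the libraries labelled Tfap2b+/- against wild type, which is 9.09%, near the 10.6% of all genes tested. Those 3 were Med12, Med12l and Med26, all higher, where 6.46% of all genes were higher at that p and 4.15% lower. By groups that did not overlap, 2 of 33 lay above wild type (6.06%, against 8.84% of all genes) and 5 lay below (15.2%, against 7.63%). The share above was thus under that of all genes. Edge cases near the unadjusted threshold were Med26 just inside, at an edgeR p of 0.0484 (adjusted p = 0.469), and Med22 just outside, at an edgeR p of 0.0508 (adjusted p = 0.473).

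Among the head genes, Med22 and Med18 lay below wild type without overlap. Med22, a structural subunit of the head, was at 23.6, 23.9 and 22.5 CPM across wild type, 20.6, 23.6 and 22.7 CPM across Tfap2a+/- and 18.4, 21.7 and 20.5 CPM across the libraries labelled Tfap2b+/-, a log2 fold of -0.21 ± 0.092 (SE). That fold was -0.14 without library 1 labelled Tfap2b+/- and -0.12 without the 3 libraries that stood apart. Med18, of the mobile part of the head near the polymerase, was at 2.96, 3.05 and 2.59 CPM across wild type, 2.43, 3.16 and 2.90 CPM across Tfap2a+/- and 1.94, 1.95 and 2.56 CPM across the libraries labelled Tfap2b+/-. Its log2 fold of -0.41 ± 0.20 (SE) was the lowest of the family and also the least precise, as Med18 had only 55 to 81 counts per library. The highest Med18 value labelled Tfap2b+/- was just under the lowest in wild type. Of the 10 other head genes, Med20 and Med30 had log2 folds of 0.19 and 0.089, and Med6, Med8, Med11, Med17, Med19, Med27, Med28 and Med29 ran from -0.23 to -0.067, all with groups that overlapped. Single libraries set much of some of these: without wild-type library 2 the log2 fold of Med27 was -0.052 in place of -0.23, and without the 3 libraries that stood apart it turned to 0.013. Med20 had 0.090 with wild-type library 2 left out and 0.33 with wild-type library 3 left out, Med29 had -0.15 without wild-type library 2, and Med11 had -0.13 without library 3 labelled Tfap2b+/-.

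In the middle module, Med7 and Med10 lay below wild type without overlap and Med26 above it with overlap. Med7, which forms a long hinge with Med21 between the ends of the module, was at 15.4, 15.2 and 15.2 CPM across wild type, 14.9, 13.9 and 14.6 CPM across Tfap2a+/- and 14.6, 13.2 and 12.6 CPM across the libraries labelled Tfap2b+/-. All 6 heterozygote libraries were under the 3 wild-type ones, whose spread was the smallest of the family, and the log2 fold was -0.18 ± 0.087 (SE) in the libraries labelled Tfap2b+/-. Med10, another subunit of this module, was at 16.5, 14.4 and 16.3 CPM across wild type, 14.1, 17.3 and 15.5 CPM across Tfap2a+/- and 12, 14.2 and 13.5 CPM across the libraries labelled Tfap2b+/-, a log2 fold of -0.25 ± 0.11 (SE). The gap between these groups was narrow, since the lowest wild-type value was just above the highest labelled Tfap2b+/-.

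Med26 is known for bringing in elongation factors. It was at 7.75, 8.66 and 7.26 CPM across wild type, 9.28, 8.64 and 8.48 CPM across Tfap2a+/- and 8.61, 9.54 and 10.5 CPM across the libraries labelled Tfap2b+/-, a log2 fold of 0.27 ± 0.12 (SE). The lowest library labelled Tfap2b+/- lay under the highest wild-type one, and without the 3 libraries that stood apart the log2 fold was 0.42. For the remaining middle genes, Med1, the subunit that binds nuclear receptors, had a log2 fold of -0.021, Med4 of 0.080, Med9 of 0.0076, Med21 of 0.17 and Med31 of -0.12.

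Med14, which lies on the X chromosome like Med12 (chromosome X, 12675369 to 12762073, minus strand), did not share the direction of Med12. It was at 98.4, 104 and 109 CPM across wild type, 98.5, 102 and 119 CPM across Tfap2a+/- and 79.2, 99.1 and 99.3 CPM across the libraries labelled Tfap2b+/-. The groups overlapped, and the log2 fold was -0.17 ± 0.11 (SE), with library 1 well below the other 2, and -0.063 without it.

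In the tail, which receives activators, Med15 lay below wild type without overlap. Med15, a target of several activators, was at 53.5, 68.8 and 54.9 CPM across wild type, 52.7, 56.8 and 56.9 CPM across Tfap2a+/- and 43.6, 52.9 and 52.5 CPM across the libraries labelled Tfap2b+/-, a log2 fold of -0.25 ± 0.12 (SE). Wild-type library 2 and library 1 labelled Tfap2b+/- held the extremes, and the log2 fold was -0.12 without the first, -0.16 without the second and -0.032 without the 3 libraries that stood apart. Med16, Med24 and Med25 had log2 folds of -0.12, -0.074 and -0.13, and Med23 had 0.074, all with overlap. Med16 turned to 0.058 without the 3 libraries that stood apart.

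**Figure D4:**
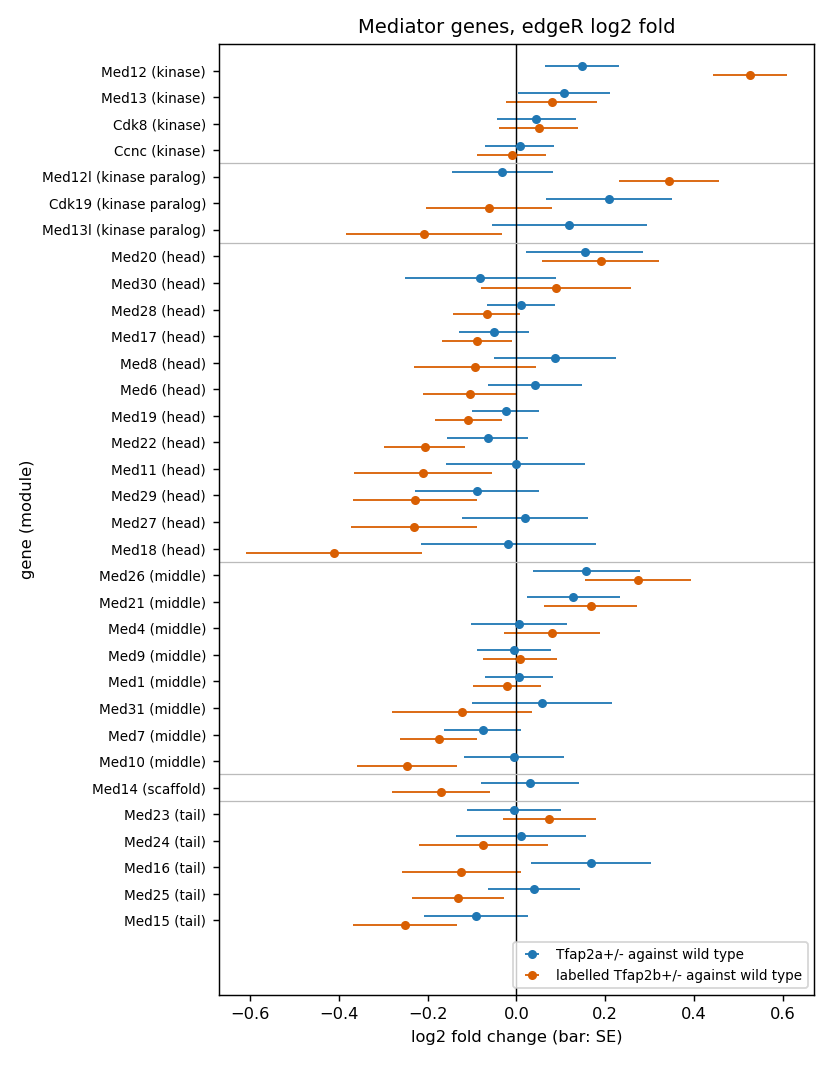
Log2 fold against wild type with its SE for the 33 genes, by module, in Tfap2a+/- (blue) and in the libraries labelled Tfap2b+/- (orange). Both comparisons use the same wild-type libraries, Med12 labelled Tfap2b+/- stands alone at 0.53, and 19 of the 26 core genes have their orange point below 0.

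Set beside the core, the mean of the kinase module stood higher in the libraries labelled Tfap2b+/-. Of its 4 genes only Med12 lay clear of wild type there, while Med13, Cdk8 and Ccnc overlapped it (log2 folds of 0.079, 0.050 and -0.011). The mean log2 CPM of the 4 kinase genes minus that of the 26 core genes was 0.94, 0.96 and 0.98 in wild-type libraries 1 to 3, 1.09, 0.91 and 1.06 in Tfap2a+/- and 1.24, 1.21 and 1.15 in the libraries labelled Tfap2b+/-. The last 3 values lay above the 6 others, and Tfap2a+/- ranged on both sides of wild type. The group means were 0.96 ± 0.021, 1.02 ± 0.098 and 1.20 ± 0.047 (SD, n = 3), so the difference from wild type was 0.24 for the libraries labelled Tfap2b+/- and 0.060 for Tfap2a+/-. No test is given for it, since the division was proposed with these values known. Leaving out Med12 cut the larger difference to 0.12, though the libraries labelled Tfap2b+/- (1.24 to 1.29) still lay above wild type (1.11 to 1.16). Tfap2a+/- without Med12 was at 1.23, 1.07 and 1.22, so its highest library all but met the lowest labelled Tfap2b+/-. Without the 3 libraries that stood apart the difference was 0.22.

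**Figure D5:**
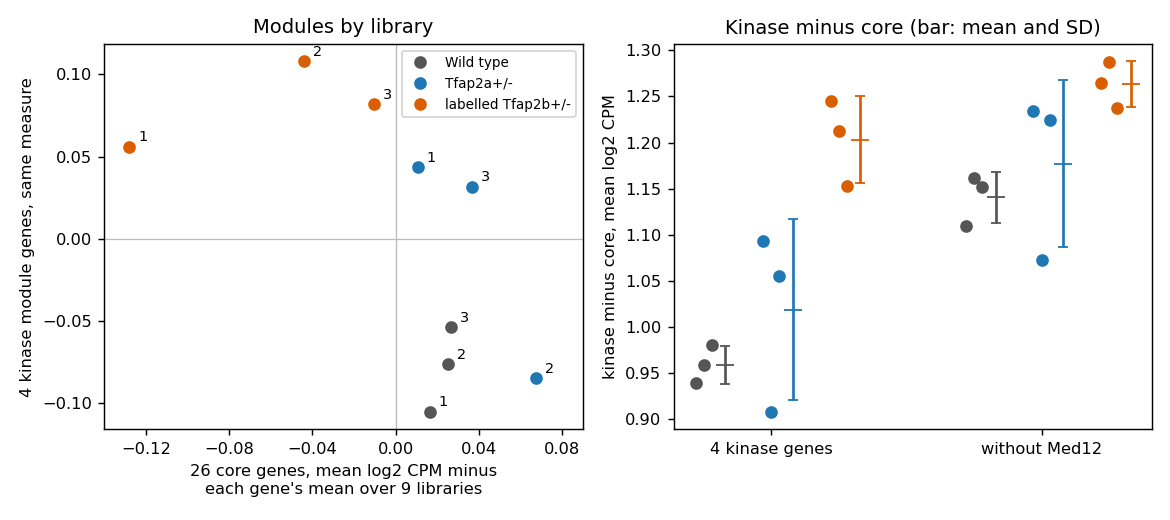
Left, mean deviation of the 4 kinase genes against that of the 26 core genes, each as log2 CPM minus the mean of the gene over 9 libraries, 1 numbered point per library. Right, kinase minus core in mean log2 CPM per library with the mean and SD (n = 3), for 4 genes and without Med12. The 3 libraries labelled Tfap2b+/- lie highest on the left axis, and on the right they stand at 1.15 to 1.24 against 0.94 to 0.98 in wild type.

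Both parts of the difference can be read by library. The core deviation from the mean over 9 libraries was -0.13, -0.044 and -0.010 in libraries 1 to 3 labelled Tfap2b+/- and 0.016 to 0.026 in wild type. The kinase deviation, a mean that includes Med12, was 0.056, 0.11 and 0.082 in the libraries labelled Tfap2b+/- and -0.11 to -0.054 in wild type. The core was thus lowest in library 1, while the kinase genes were not highest there.

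In Tfap2a+/- the Mediator genes lay close to wild type. None of the 33 was called by edgeR or DESeq2, and 0 of 33 had an unadjusted p under 0.05, against 3.84% of all genes, 2.15% higher and 1.68% lower. Cdk19 lay above wild type without overlap (1 of 33, or 3.03%, against 4.85% of all genes), with a log2 fold of 0.21 ± 0.14 (SE), a 95% confidence interval of -0.11 to 0.53, and 0.13 without Tfap2a+/- library 3. Med7 lay below (1 of 33, against 4.32% of all genes), with a log2 fold of -0.076 ± 0.087 (SE). The core had a median log2 fold of 0.0056, with 12 of 26 lower, against 51.8% of all genes. Med12 had a log2 fold of 0.15 ± 0.084 (SE), with a 95% confidence interval of -0.042 to 0.34, and its groups overlapped. The other kinase genes were at 0.11 for Med13, 0.12 for Med13l, 0.045 for Cdk8, 0.0076 for Ccnc and -0.032 for Med12l.

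Among the core genes of smallest p in Tfap2a+/-, Med26 had a log2 fold of 0.16 ± 0.12 (SE), from the levels given above, and 0.24 without wild-type library 2 or 0.10 without wild-type library 3. Med16, a tail subunit, was at 44.6, 51.1 and 40.0 CPM across wild type and 46.8, 58.1 and 47.7 CPM across Tfap2a+/- (36.95, 39.8 and 47.8 CPM across the libraries labelled Tfap2b+/-). Its log2 fold was 0.17 ± 0.14 (SE), and the groups overlapped. It ran from 0.062 without Tfap2a+/- library 2 to 0.27 without wild-type library 2, with 0.087 without wild-type library 3. Med21, the partner of Med7 in the hinge, was at 8.97, 9.03 and 10.1 CPM across wild type, 9.96, 10.7 and 10.0 CPM across Tfap2a+/- and 10.9, 11.0 and 9.62 CPM across the libraries labelled Tfap2b+/-, with a log2 fold of 0.13 ± 0.10 (SE) in Tfap2a+/-. Med20, which pairs with Med18 in the head, was at 12.4, 10.9 and 15.3 CPM across wild type, 13.7, 14.3 and 14.9 CPM across Tfap2a+/- and 15.8, 14.8 and 13.5 CPM across the libraries labelled Tfap2b+/-. Its log2 fold in Tfap2a+/- was 0.15 ± 0.13 (SE), and the wild-type values alone spanned all of those in Tfap2a+/-. Leaving out wild-type library 2 gave 0.054, and leaving out wild-type library 3 gave 0.30. Med20 shares 513 of its 7324 exon bases with Gm20517. Med15 completed the 6 with a log2 fold of -0.092 ± 0.12 (SE).

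Between the heterozygotes, Med12 and Med12l were higher in the libraries labelled Tfap2b+/- without overlap (2 of 33, against 9.2% of all genes), and Med27, Med29 and Med6 were lower (3 of 33, or 9.09%, against 8.03%). The log2 fold was 0.38 ± 0.083 (SE) for Med12 (edgeR adjusted p = 0.33) and 0.38 ± 0.11 (SE) for Med12l (edgeR adjusted p = 0.373), and -0.25, -0.14 and -0.15 for Med27, Med29 and Med6. These 2 were the members with an unadjusted p under 0.05 (2 of 33, or 6.06%, against 11.5% of all genes, 6.53% higher and 4.98% lower). By edgeR 0 members were called, and by DESeq2 1, Med12. The mean was lower for 19 of 26 core genes, against 48.3% of all genes. This comparison uses the same libraries labelled Tfap2b+/- as the one with wild type.

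Partners of Mediator in transcription gave 0 calls in any list by edgeR. For the counts that follow in the libraries labelled Tfap2b+/-, 50.3% of all genes had a lower mean than wild type and 10.6% had an unadjusted p under 0.05 (6.46% higher and 4.15% lower). Of 13 subunits of RNA polymerase II, 10 had a lower mean in the libraries labelled Tfap2b+/- (median log2 fold -0.14), and 3 had an unadjusted p under 0.05, all lower (23.1% of the list). Polr2g was at 39.0, 34.7 and 37.1 CPM across wild type and 28.0, 33.3 and 32.4 CPM across the libraries labelled Tfap2b+/- (log2 fold -0.24 ± 0.094, SE), and Polr2k had a log2 fold of -0.40 ± 0.16 (SE). Of 31 general initiation factors tested, 22 had a lower mean (median -0.069), 1 had an unadjusted p under 0.05, Gtf2a2 at 0.25 ± 0.098 (SE), and the next was Gtf2b at -0.18 ± 0.083 (SE). Of 22 elongation factors, 14 had a lower mean (median -0.028) and 0 had an unadjusted p under 0.05, with Hexim1 at -0.23 and Nelfa at 0.17.

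Cohesin, the ring that works with Mediator in looping enhancers to promoters, had a higher mean for 9 of 11 genes in the libraries labelled Tfap2b+/- (18.2% lower, against 50.3% of all genes, with a median log2 fold of 0.069), with Stag1 at 0.19 and Smc1a at 0.11 and 0 at an unadjusted p under 0.05. Of 14 Integrator genes 7 were lower (median 0.00082), with Ints2 at 0.26 and Ints11 at -0.24, the 2 with an unadjusted p under 0.05 (14.3% of the list, against 10.6% of all genes). Of 18 nuclear receptors, which reach Mediator through Med1, 12 were lower (66.7%, against 50.3% of all genes, with a median of -0.037), and 1, Rara (5.56% of the list, against 10.6% of all genes), had an unadjusted p under 0.05 at -0.50 ± 0.19 (SE), followed by Rxrb at -0.18. The retinoic acid receptor Rara was also lower in Tfap2a+/-, at 10.6, 10.2 and 8.34 CPM against 12.4, 21.3 and 14.6 CPM across wild type (log2 fold -0.72 ± 0.19, SE, edgeR adjusted p = 0.999).

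In Tfap2a+/- the medians of these lists ran from -0.025 for RNA polymerase II to 0.075 for nuclear receptors. The mean was lower for 10 of 13 RNA polymerase II genes and 2 of 11 cohesin genes, against 51.8% of all genes. The libraries labelled Tfap2b+/- had the same 2 counts, against the same wild-type libraries. The mean was also lower for 15 of 31 initiation factors, 12 of 22 elongation factors, 2 of 14 Integrator genes and 6 of 18 nuclear receptors. Of the nuclear receptors, 4 of 18 had an unadjusted p under 0.05 (22.2%, against 3.84% of all genes). These were 3 higher and 1 lower, against 2.15% and 1.68% of all genes. Rxrg, a receptor abundant in the striatum, was at 1.64, 8.51 and 3.17 CPM across wild type and 35.4, 32.2 and 11.5 CPM across Tfap2a+/- (log2 fold 2.56 ± 0.70, SE, edgeR adjusted p = 0.999). Rarb, also higher, was at 45.5, 34.3 and 12.8 CPM across Tfap2a+/- and 9.44, 15.5 and 10.1 CPM across wild type. Its groups overlapped (log2 fold 1.40 ± 0.47, SE), and Rarg had a log2 fold of 0.24 ± 0.10 (SE). The 8 striatal markers summed to 806 to 2188 CPM across Tfap2a+/- and to 332 to 708.5 CPM across wild type. Their part in the Rxrg and Rarb differences was not tested. The genes of smallest p in the other lists were Polr2a at -0.13 and Polr2g at -0.10, Taf12 at 0.20 and Taf6 at -0.10, Nelfcd and Ell at -0.14 each, Smc1a at 0.10 and Ctcf at 0.11, and Ints11 at -0.17 and Ints7 at 0.17.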

How the data were processed

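Polyadenylated RNA was read as stranded pairs of 75 bp (dUTP second strand, per the labels' protocols). The authors deposited whole-number counts per gene in the layout of STAR, and cutadapt 2.4, STAR 2.6.1d, edgeR and GRCm38.p6 are listed in the submitters' processing notes, which give no annotation release. Reverse-strand counts were used. Of 54446 identifiers, 54409 matched GENCODE M21, which gave names, positions and exon lengths. Rows that name no gene (15.5% to 19.7% of fragments) stayed out. Counts in genes, 21946800 to 29214975 per library, make 3 counts worth 0.101 to 0.141 CPM, for counting error only. STAR drops reads at several positions or in overlapping exons, which affects near copies and shared exons.

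Genes kept by filterByExpr (17355) were fitted in edgeR 4.0.16 (R 4.3.3, limma 3.58.1) with TMM and the quasi-likelihood F-test, 1 fit of all 9 libraries by genotype. Benjamini-Hochberg adjusted p-values cover all 17355 genes, and those under 0.05 were called. SE is the log2 fold divided by the root of F. Kinase minus core uses log2 CPM (prior count 2) and has no test. Per-kb levels divide CPM by the exon bases shared with no other gene on the strand. The code was tested on simulated data. No pair of replicates agreed within sampling noise (chi-square per degree of freedom 20.6 or more).

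Members, lists, tests and naming were chosen with earlier results of these data known. Every member is named at least once, the 7 kinase genes with paralogs in full, and, of the core, the 6 of smallest p per comparison with wild type. Related lists give up to 2 genes of smallest p, with Rarb and Rarg added in Tfap2a+/-. Alternatives were DESeq2 1.42.0, its size factors, other filters, unstranded counts, a replicate block, only 2 genotypes, other kinase summaries and each library left out. Leaving out the 3 libraries that stood apart, and Med12 from the kinase set, was chosen after seeing the data. Replicate numbers were not used to pair the libraries in the main fit.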

Additional observations from a re-analysis of the deposited data

How the results depend on the processing

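Depth limits the low genes most, above all Med18, and 3 libraries a group limit every comparison. The labels say nothing of separate animals. DESeq2 called 30 genes for Tfap2a+/- against wild type, 175 for the libraries labelled Tfap2b+/- against wild type and 228 between the heterozygotes, and its calls held 1 Mediator gene, Med12, in each of the last 2. Without a filter on low counts edgeR called 2 genes for Tfap2a+/- and 7 between the heterozygotes. With each library left out in turn, the genes called ran from 0 to 3 for Tfap2a+/-, from 0 to 4 for the libraries labelled Tfap2b+/- and from 0 to 31 between the heterozygotes, where the 31 came without library 3 labelled Tfap2b+/-, and 0 Mediator genes were called. Without the 3 libraries that stood apart the last 2 counts were 2 and 1. Kinase minus core in the libraries labelled Tfap2b+/- exceeded wild type by 0.18 with the 3 paralogs, 0.32 with medians in place of means and 0.12 without Med12, and by 0.22 to 0.27 with each library left out. For Tfap2a+/- the left-out range was 0.022 to 0.12. The log2 fold of Med12 in DESeq2 was 0.52, past the threshold. Signs turned for Ccnc in Tfap2a+/- to -0.0030 with no filter and -0.014 without the 3 libraries, for Ccnc in the libraries labelled Tfap2b+/- to 0.0076 with a filter of CPM 1 and 0.0058 without the 3 libraries, for Med15 in Tfap2a+/- to 0.077 without the 3 libraries, and for Med7 in Tfap2a+/- to 0.12 with unstranded counts. With single libraries left out, the log2 fold in Tfap2a+/- ran from -0.017 to 0.057 for Ccnc, -0.0026 to 0.11 for Cdk8, -0.064 to 0.037 for Med12l, -0.012 to 0.23 for Med13l and -0.15 to 0.042 for Med15, and in the libraries labelled Tfap2b+/- from -0.063 to 0.028 for Ccnc and -0.22 to 0.065 for Cdk19. The cause was not tested. Over 17 alternatives 23 of 33 members changed sign at least once in Tfap2a+/- (75 of 560 values) and 10 of 33 in the libraries labelled Tfap2b+/- (20 of 560), where the largest fold to turn was -0.23, of Med27.

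With the replicate block, edgeR called 0 genes in each comparison (627, 1718 and 1848 at an unadjusted p under 0.05), and Med12 in the libraries labelled Tfap2b+/- had a log2 fold of 0.53 (edgeR adjusted p = 0.288). Same-numbered libraries had correlations of their deviations from -0.35 to 0.34, and libraries of unlike number from -0.39 to 0.37. Whether libraries of the same number shared a litter or a batch cannot be told from these values. The replicate block changed no call.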
